A study of Homo sapiens with 4 samples.

Results

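The transcripts of 10 genes of the RB and E2F pathway were followed across 4 arrays of MCF10A cells, a human breast epithelial line that does not form tumours. They were the activator factors E2F1, E2F2 and E2F3, their dimerization partner TFDP1, the atypical repressors E2F7 and E2F8, the pocket proteins RB1, RBL1 and RBL2, and the cell cycle factor MYBL2. A probe set was taken if the platform annotation gave it exactly 1 gene symbol and that symbol was 1 of these 10. This gave 22 of the 41091 probe sets with 1 symbol, and 10 of 19775 genes. The brightest probe set of each gene, by mean intensity over the arrays, was its main one.

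The cultures carried a retroviral insert from pQCXIH-YAP-W1W2, pQCXIH-YAP-S94A, pQCXIH-YAP-WT or the empty pQCXIH vector, and there was 1 array for each. All 4 cultures grew in the same medium, with 5% horse serum, EGF, hydrocortisone, insulin and cholera toxin. YAP is the coactivator that the Hippo pathway restrains. The S94A change lies in its TEAD-binding region, and in W1W2 both of its WW domains are mutated. Whether the infected cells were pools or clones is not given in the sources used here.

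E2F factors switch on the genes of S phase entry. In resting cells the pocket proteins hold them silent, and cyclin-dependent kinases release them by phosphorylating the pocket proteins. E2F1, E2F2 and E2F3 bind DNA as dimers with a DP protein such as that of TFDP1. E2F7 and E2F8 bind without a DP partner or a pocket protein and shut the same genes off later in the cycle. The product of RBL2, p130, joins E2F4 and the MuvB proteins in the DREAM repressor complex of quiescent cells. In cycling cells MYBL2 takes over MuvB and, with FOXM1, activates mitotic genes. E2F1, E2F7, E2F8, RBL1 and MYBL2 are themselves known as E2F-regulated genes.

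Promoters are shown here because E2F-regulated members are known to carry E2F sites close to the start. RefSeq windows of assembly GRCh38.p14, from 250 bases before to 50 bases after an annotated start, were found for 9 of the 10 members, all but E2F8, in 11 windows. The RB1 window lay at chr13:48476200-48476499, and whether it holds the main start of RB1 was not checked. They were searched on both strands for the E2F words TTTGGCGC, TTTCGCGC, TTTCCCGC and TTTGCCGC, and for the CHR word TTTGAA, the element that MuvB reads. In the stretches printed below, which run from 170 bases before the start to 30 bases after it, a capital marks a base of an E2F or CHR word. E2F1 and RBL1 held 2 E2F words each, and E2F2 held 1. The windows of MYBL2 and E2F7, whose transcripts were among the highest relative to vector, held no exact match to these words. A site spelled otherwise would be missed, so this does not show that they lack E2F sites. RBL2, the only member at least 2-fold lower than in vector in a YAP form, had 2 windows. The first, shown here, held a CHR word and the second held no E2F or CHR word.
E2F1, chr20:33686356-33686555, minus strand: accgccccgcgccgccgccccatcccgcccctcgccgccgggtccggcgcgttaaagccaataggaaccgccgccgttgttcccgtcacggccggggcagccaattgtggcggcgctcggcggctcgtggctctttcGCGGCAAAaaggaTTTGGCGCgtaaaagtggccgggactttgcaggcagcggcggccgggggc
RBL1, chr20:37095968-37096167, minus strand: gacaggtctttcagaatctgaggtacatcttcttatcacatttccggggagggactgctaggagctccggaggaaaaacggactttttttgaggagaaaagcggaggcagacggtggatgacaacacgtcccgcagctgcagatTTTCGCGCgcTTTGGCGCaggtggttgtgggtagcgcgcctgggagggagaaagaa
E2F2, chr1:23531204-23531403, minus strand: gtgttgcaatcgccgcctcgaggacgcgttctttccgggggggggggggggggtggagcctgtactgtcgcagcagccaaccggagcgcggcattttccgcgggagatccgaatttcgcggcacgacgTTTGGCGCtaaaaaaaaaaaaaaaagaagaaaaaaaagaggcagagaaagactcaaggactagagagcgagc
MYBL2, chr20:43666944-43667143, plus strand: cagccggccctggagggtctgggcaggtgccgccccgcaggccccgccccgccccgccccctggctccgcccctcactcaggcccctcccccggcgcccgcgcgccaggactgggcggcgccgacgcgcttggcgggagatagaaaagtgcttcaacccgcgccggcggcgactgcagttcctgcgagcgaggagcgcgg
E2F7, chr12:77065540-77065739, minus strand: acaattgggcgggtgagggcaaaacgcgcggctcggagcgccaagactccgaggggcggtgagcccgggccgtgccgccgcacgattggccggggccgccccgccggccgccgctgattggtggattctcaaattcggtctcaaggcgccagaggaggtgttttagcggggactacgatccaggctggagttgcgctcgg
RBL2, chr16:53434301-53434500, plus strand: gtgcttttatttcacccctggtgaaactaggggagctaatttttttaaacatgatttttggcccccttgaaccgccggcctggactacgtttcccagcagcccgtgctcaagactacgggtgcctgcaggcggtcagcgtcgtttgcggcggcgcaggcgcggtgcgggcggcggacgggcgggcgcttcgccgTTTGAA

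The 2 words of E2F1 lay at bases -33 to -26 and -20 to -13 before the start. Those of RBL1 lay at -26 to -19 and -16 to -9, and the 1 of E2F2 at -42 to -35. TFDP1 and the first of 2 windows of E2F3 also held 1 E2F word each. In all, 5 of the 11 member windows (45.45%) held an E2F word, against 3.31% of 35116 windows of all genes. A CHR word stood in 2 of the 11 (18.18%), 1 of E2F3 and 1 of RBL2, which is near the 15.16% of all windows, and no matches of different words overlapped. The TEAD word GGAATG stood in 0 of the 11, against 14.03% of all windows. A match is a description of the letters and not a measured site. Some members are known E2F-regulated genes, and all windows include those of noncoding genes, so these shares are a description only.

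Values are linear array intensities. Those under 72.9, the 40th percentile of the 4 arrays together, were raised to that floor before log2 was taken, and a fold against an array at the floor is a lower bound. Genes with a mean intensity of at least 113.6 are called measured, which held for 12759 genes and for the main probe sets of all 10 members. E2F1 and E2F8 passed that limit only through the YAP arrays, since both lay under it in vector. Each group had a single array and differences have no replicate check, so no p-value or standard error is given, and a gene was counted as higher or lower past a fixed 2-fold difference. The number of arrays limits the precision.

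Several features of the arrays moved with the groups. The median measured gene was shifted from vector by a log2 of 0.10 in YAP-W1W2, 0.14 in YAP-S94A and 0.14 in YAP-WT. The bacterial control BioB, added to every hybridization, differed from vector by -1.28, -0.83 and -0.47 in the same order, and the actin control by 0.80, 0.68 and 0.43. Against vector, the 3 probe sets of YAP1 had log2 differences of 0.15 to 0.52 in YAP-W1W2, 0.04 to 0.60 in YAP-S94A and -0.24 to 0.13 in YAP-WT. On the array labelled YAP-WT 2 of the 3 lay below vector, and whether they lie within the constructs is not known. Of 13 basal mammary markers 8 had a probe set with 1 symbol, and all 8 were measured, KRT5 and KRT14 among them. The summed intensity of 9 luminal markers was 66029 in YAP-W1W2, 35398 in YAP-S94A, 46524 in YAP-WT and 20134 in vector. KRT18 alone had 34605, 18123, 16990 and 5609 in the same order, while MUC1 lay below vector in both mutants. The summed intensity of 9 fibroblast markers was 5518, 3097, 6972 and 11582 in the same order. Without DCN the other 8 summed to 5270, 2809, 3087 and 2238, so the direction turned. The sum of 5 immune markers lay between 433 and 639, and VWF, CDH5 and TEK of 5 endothelial markers were at or below the floor on every array. The part of these features in the results that follow was not tested.

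Cells with any YAP form had more transcript of E2F1, E2F7, E2F8 and MYBL2 than cells with vector, by main probe sets. They had less of RBL2, which passed 2-fold in both mutants. A second E2F7 probe set was nearly level, and the other E2F1 probe set was too dim to show whether 2-fold was passed. In YAP-W1W2, 4 of the 10 members were at least 2-fold higher than in vector, set beside 11.4% of all measured genes, and 1 was at least 2-fold lower, set beside 8.4%. In YAP-S94A, 5 were higher (background 10.3%) and 1 lower (background 6.53%). In YAP-WT, 4 were higher (background 9.11%) and 0 lower (background 4.95%). E2F1, E2F7, E2F8 and MYBL2, 4 members, passed 2-fold upwards in all 3 YAP forms, as did 3.93% of measured genes. These comparisons share the vector array. On RNA of whole cultures, more cycling cells and more RNA per cell cannot be told apart.

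**Figure D1:**
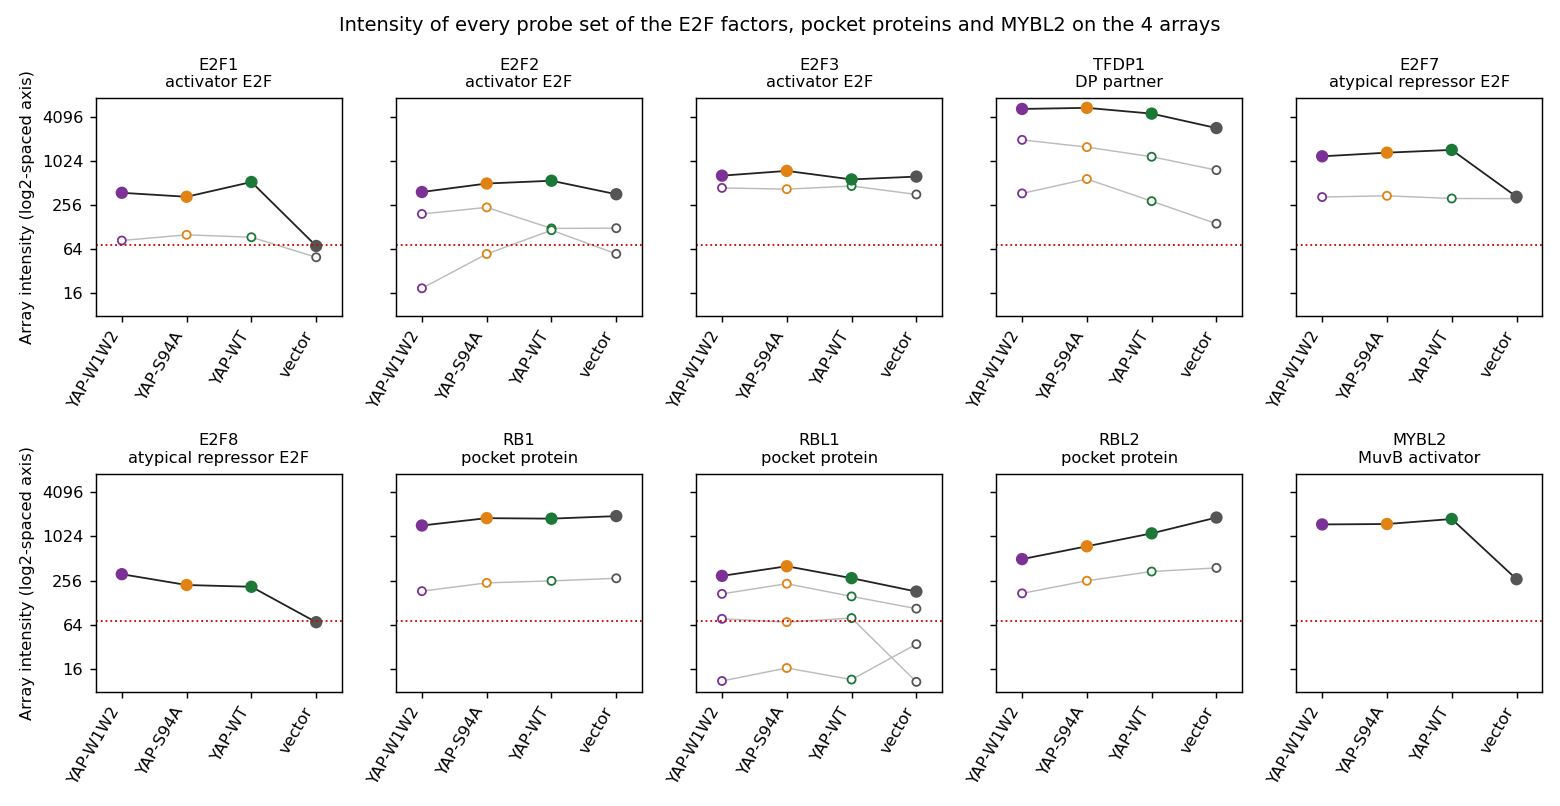
Array intensity (vertical axis, spaced by log2) of all 22 probe sets of the 10 members on the YAP-W1W2, YAP-S94A, YAP-WT and vector arrays, 1 array each; filled points are the main probe set, open points the others, lines join the points of 1 probe set, and the dotted line is the floor of 72.9. E2F1, E2F7, E2F8 and MYBL2 are lowest on the vector array by their main probe sets, and RBL2 is highest there.

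Among the activators, E2F1 carried the difference. E2F1 is the E2F most closely tied to S phase entry and can also induce cell death. Its main probe set had an intensity of 374.4 in YAP-W1W2, 330.3 in YAP-S94A, 525.7 in YAP-WT and 70.3 in vector. The vector value lay just below the floor, so E2F1 was at least 5.14-fold higher in YAP-W1W2, at least 4.53-fold in YAP-S94A and at least 7.21-fold in YAP-WT. Relative to the median gene these bounds were log2 values of 2.26, 2.04 and 2.71. In YAP-WT, with all genes floored alike, E2F1 stood at rank 38 of the 12759 measured genes from the highest. Differences of other genes at the floor are bounds too, so its rank without the floor could be higher or lower. Its other probe set was dim, with 83.5 in YAP-W1W2, 99.9 in YAP-S94A, 92.6 in YAP-WT and 49.3 in vector. That probe set also had its lowest value in vector, which lay under the floor. Its log2 differences are therefore lower bounds, at least 0.20, 0.45 and 0.35, and do not show whether 2-fold was passed. Without the floor its folds were 1.69, 2.03 and 1.88.

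E2F2 and E2F3, which overlap with E2F1 in function, stayed under 2-fold in every form. E2F2 had intensities of 383.7 in YAP-W1W2, 501 in YAP-S94A, 547 in YAP-WT and 357.7 in vector. Its log2 differences from vector were 0.10, 0.49 and 0.61, and in YAP-W1W2 it stood at the median gene. A second, dimmer probe set of E2F2 ordered the forms otherwise, with 192.4 in YAP-W1W2, 236.6 in YAP-S94A, 122.2 in YAP-WT and 123.1 in vector. The remaining E2F2 probe set was dim, at 18.6, 54.7, 115.5 and 54.9 in the same order. E2F3 had 641.5 in YAP-W1W2, 745.5 in YAP-S94A, 569.6 in YAP-WT and 623.3 in vector. Its log2 differences were 0.04, 0.26 and -0.13, and its other probe set gave 0.30, 0.24 and 0.38, so the direction in YAP-WT differed between probe sets.

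TFDP1 encodes DP1, the partner that activator E2Fs need for stable DNA binding. Its main probe set had 5226.1 in YAP-W1W2, 5408.6 in YAP-S94A, 4510.8 in YAP-WT and 2865.8 in vector. It was 1.82-fold, 1.89-fold and 1.57-fold higher than in vector, just under the 2-fold limit in the mutants. All 3 TFDP1 probe sets were highest in a mutant and lowest in vector. The second probe set had 1977, 1573.5, 1162.6 and 763.9 in the same order of arrays, and the third had 367.2, 576.9, 287.7 and 141.7. By these 2 probe sets TFDP1 was more than 2-fold higher in both mutants, with log2 differences of 1.37 and 1.37 in YAP-W1W2 and 1.04 and 2.03 in YAP-S94A. In YAP-WT they stood at 0.61 and 1.02, so the third probe set passed 2-fold there too.

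Both atypical repressors were higher with every YAP form. E2F7, which is induced late in the cycle and restrains E2F1 and its targets, had 1178.1 in YAP-W1W2, 1322 in YAP-S94A, 1441.5 in YAP-WT and 330.6 in vector. The YAP arrays lay close together and far above vector, at 3.56-fold, 4.00-fold and 4.36-fold. A second E2F7 probe set was nearly level across the arrays, at 327.7, 340.7, 312.8 and 311.5, with log2 differences of 0.07, 0.13 and 0.01. The platform annotation used here does not say which part of the transcript either probe set reads. E2F8, the close relative of E2F7, had 313 in YAP-W1W2, 222.8 in YAP-S94A, 210.7 in YAP-WT and 69.2 in vector. With vector just below the floor, it was at least 4.29-fold, 3.06-fold and 2.89-fold higher, by its only probe set.

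The pocket proteins went 3 ways. RB1, the retinoblastoma protein that binds the activator E2Fs, was nearly level, with 1446.7 in YAP-W1W2, 1822.1 in YAP-S94A, 1794 in YAP-WT and 1943.5 in vector. It was 1.34-fold lower in YAP-W1W2, 1.07-fold lower in YAP-S94A and 1.08-fold lower in YAP-WT, and its other probe set was lower in each form too, with -0.58 (log2) in YAP-W1W2 as its largest difference. RBL1 encodes p107, the pocket protein of cycling cells, and had 296.8 in YAP-W1W2, 401.9 in YAP-S94A, 276.4 in YAP-WT and 181.2 in vector. It was 1.64-fold, 2.22-fold and 1.53-fold higher than in vector. The second-brightest probe set of RBL1 gave nearly the same log2 differences, 0.67, 1.13 and 0.56, against 0.71, 1.15 and 0.61 by the main one. Of the 2 dim RBL1 probe sets, 1 had 76.9 in YAP-W1W2, 69.4 in YAP-S94A, 78.7 in YAP-WT and 10.6 in vector, and the other lay below the floor on all 4 arrays.

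RBL2, which encodes p130, the pocket protein of resting cells, was the only member at least 2-fold lower than in vector. Its main probe set had 502.8 in YAP-W1W2, 752.4 in YAP-S94A, 1129.8 in YAP-WT and 1857.3 in vector, so each YAP form was below vector and both mutants were below YAP-WT. It was 3.69-fold lower in YAP-W1W2, 2.47-fold lower in YAP-S94A and 1.64-fold lower in YAP-WT. In YAP-W1W2 it was the 274th lowest of 12759 measured genes. The second RBL2 probe set kept the order, with 171.2 in YAP-W1W2, 254.7 in YAP-S94A, 340.2 in YAP-WT and 381.5 in vector, but its log2 differences of -1.16, -0.58 and -0.17 were smaller. By the mean of both probe sets the difference in YAP-S94A was -0.94, short of 2-fold. The bacterial control BioB followed the same order of arrays as RBL2, and its part in this result was not tested.

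MYBL2, or B-MYB, activates mitotic promoters together with MuvB. It had 1496 in YAP-W1W2, 1515.9 in YAP-S94A, 1774.2 in YAP-WT and 267.4 in vector, by its only probe set. The YAP arrays stood 5.59-fold, 5.67-fold and 6.63-fold above vector, at ranks 98, 73 and 46 of 12759 from the highest. MYBL2 was also among the 5 measured genes whose log2 profile over the 4 arrays, centred on its mean, lay nearest to that of E2F1. In order of Euclidean distance these were CENPM at 0.30, ZWINT at 0.31, SEMA5B at 0.32, MYBL2 at 0.33 and SLIT3 at 0.39. E2F1, CENPM and SEMA5B all lay below the floor in vector, so these distances compare floored values. The genes nearest to RBL2 were FAM13A at 0.13, COL5A2 at 0.14, CES2 at 0.14, GAA at 0.18 and FMC1 at 0.18. These distances rest on 4 arrays and say nothing of shared control.

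**Figure D2:**
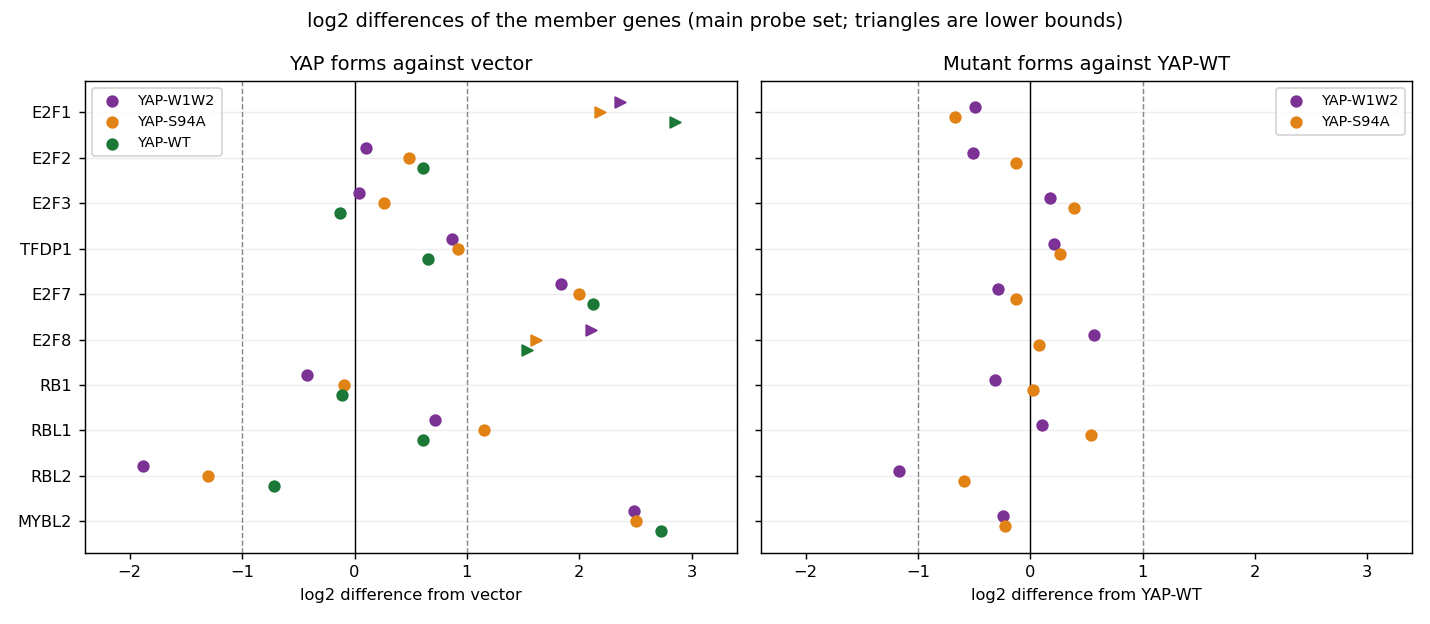
log2 differences of the 10 members by their main probe sets, from vector for the 3 YAP forms (left) and from YAP-WT for the mutants (right), 1 array per group; dashed lines mark 2-fold and triangles are lower bounds because vector lay below the floor. On the left E2F1, E2F7, E2F8 and MYBL2 lie above 2-fold in all 3 forms and RBL2 below it in both mutants. On the right RBL2 in YAP-W1W2, at -1.17, is the 1 point past 2-fold.

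By main probe sets, RBL2 in YAP-W1W2 was the 1 member past 2-fold between a mutant and YAP-WT. The second RBL2 probe set stood at -0.99 (log2) there, short of 2-fold, and the dimmest of the TFDP1 probe sets stood at 1.00 in YAP-S94A, just past it. In YAP-W1W2, 0 of the 10 members were at least 2-fold higher than in YAP-WT (background 3.91%), and 1, RBL2, was lower (background 5.59%), at 2.25-fold. In YAP-S94A, 0 were higher (background 5.06%) and 0 lower (background 6.27%). RBL2 in YAP-S94A was 1.50-fold lower than in YAP-WT. E2F1 was 1.40-fold lower in YAP-W1W2 and 1.59-fold lower in YAP-S94A than in YAP-WT by its main probe set. Its other, dim probe set gave log2 differences of -0.15 and 0.11, so the direction in YAP-S94A differed between probe sets. E2F8 was 1.49-fold higher in YAP-W1W2 and 1.06-fold higher in YAP-S94A. RBL1 was 1.07-fold higher in YAP-W1W2 and 1.45-fold higher in YAP-S94A. The median member differed from YAP-WT by a log2 of -0.27 in YAP-W1W2 and -0.05 in YAP-S94A, against -0.04 and 0.01 for all measured genes.

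YAP-W1W2 compared with YAP-S94A had 0 members at least 2-fold higher (background 4.98%) and 0 lower (background 4.45%). RBL2 was again the lowest of them, at a log2 difference of -0.58, and E2F8 the highest at 0.49. MYBL2 differed by -0.02 and TFDP1 by -0.05. Single differences of this size between 2 arrays cannot be set against replicate error here.

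Of the 4 other E2F and DP genes, 1 was at least 2-fold higher than in vector in all 3 forms (background 3.93%). E2F4, the partner of p130 in DREAM, had intensities of 1883.3 in YAP-W1W2, 2171.3 in YAP-S94A, 1772 in YAP-WT and 834 in vector, with log2 differences of 1.18, 1.38 and 1.09. Relative to the median gene its difference in YAP-WT was under 1, so it no longer passed 2-fold there after centring. E2F5, another E2F of resting cells, differed by 0.21, 0.59 and -0.42, and E2F6, which represses without pocket proteins, by -0.13, 0.26 and 0.18. TFDP2, the other DP gene, ran against TFDP1, at -0.79 in YAP-W1W2, -0.85 in YAP-S94A and -0.12 in YAP-WT.

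Of 7 genes of the MuvB core and its partners, all measured, 2 were at least 2-fold higher in all 3 forms (background 3.93%). FOXM1, the forkhead factor of mitotic genes, had log2 differences from vector of 2.38 in YAP-W1W2, 2.40 in YAP-S94A and 2.49 in YAP-WT. MYBL1, the germ cell relative of MYBL2, had 1.04, 1.37 and 2.03. The core subunits LIN9, LIN37, LIN52, LIN54 and RBBP4 stayed under 2-fold, with RBBP4 nearly level at 0.02, 0.15 and 0.03. LIN37 and RBBP4 were named after their values were seen. LIN54, the subunit that reads the CHR word, stood at 0.95, 0.91 and 0.82, with a vector intensity close to the floor.

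The genes that set the phosphorylation of the pocket proteins were mixed. Of 13 measured cyclins, kinases and inhibitors, 6 were at least 2-fold higher and 2 lower in YAP-W1W2 than in vector (background 11.4% and 8.4%). The counts were 6 and 1 in YAP-S94A (background 10.3% and 6.53%), and 4 and 1 in YAP-WT (background 9.11% and 4.95%). The median log2 differences were 0.47, 0.90 and 0.38, against 0.10, 0.14 and 0.14 for all measured genes. Cyclin D1 (CCND1), whose kinase starts the phosphorylation of RB, had 1.77 in YAP-W1W2, 1.63 in YAP-S94A and 1.64 in YAP-WT. Its kinase partner CDK6 had 1.85, 1.26 and 1.47, and CDK2, the partner of cyclin E, had 1.51, 1.15 and 1.61. The cyclin E genes, which are E2F targets too, were higher in the mutants, with CCNE1 at 1.45, 1.50 and 0.66 and CCNE2 at 2.11, 2.17 and 1.28. Cyclin D2 (CCND2) split the forms, at -0.29 in YAP-W1W2, 1.25 in YAP-S94A and -1.29 in YAP-WT.

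The kinase inhibitors of the CIP/KIP family were lower in the mutants or under 2-fold. CDKN1C, or p57, had intensities of 1932.8 in YAP-W1W2, 824.7 in YAP-S94A, 3793 in YAP-WT and 4578.2 in vector, and log2 differences of -1.24, -2.47 and -0.27. CDKN1B, or p27, had -1.03, -0.84 and -0.36. Both were lower in the mutants than in YAP-WT, as RBL2 was. CDKN1A, or p21, stayed under 2-fold at -0.30, -0.42 and 0.06.

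On a chosen list of E2F G1/S targets, 29 of 41 measured passed 2-fold upwards in all 3 YAP forms, against 3.93% of measured genes. This list was chosen with earlier results of these data known, and it shares CCNE1 and CCNE2 with the list of cyclins and kinases. Of 41 measured E2F targets of the G1/S transition, out of 44 listed, 32 were at least 2-fold higher in YAP-W1W2 (background 11.4%). The counts were 37 in YAP-S94A (background 10.3%) and 30 in YAP-WT (background 9.11%). At least 2-fold lower were 0 in any form (background 8.4%, 6.53% and 4.95%). CHAF1B, a histone chaperone subunit named after its values were seen, stood at -0.13 in YAP-WT. The median log2 differences were 1.78, 1.93 and 1.36. CDC45, a part of the replicative helicase, had 3.51 in YAP-W1W2, 3.79 in YAP-S94A and 2.74 in YAP-WT, and CDC6, which loads that helicase, had 3.22, 2.89 and 2.31. The phosphatase CDC25A, which activates CDK2, had 2.58, 2.68 and 2.67.

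The main probe set of E2F1 was brightest in YAP-WT. The G1/S list had a median log2 difference from YAP-WT of 0.21 in YAP-W1W2 and 0.42 in YAP-S94A, against -0.04 and 0.01 for all measured genes. In YAP-W1W2, 1 of 41 was at least 2-fold higher than in YAP-WT (background 3.91%), and in YAP-S94A 4 were (background 5.06%), with 0 lower in both. Of 32 measured mitotic targets of MuvB, 29 were at least 2-fold higher than in vector in YAP-W1W2 (background 11.4%). The counts were 32 in YAP-S94A (background 10.3%) and 32 in YAP-WT (background 9.11%). The medians were 1.65, 1.87 and 1.89. The polo-like kinase PLK1 had 2.46, 2.91 and 2.15 and the anaphase activator CDC20 had 2.44, 2.54 and 2.59. Relative to YAP-WT the MuvB target list had medians of -0.28 in YAP-W1W2 and 0.10 in YAP-S94A, with 0 of 32 past 2-fold in both. The background shares higher and lower were 3.91% and 5.59% in YAP-W1W2, and 5.06% and 6.27% in YAP-S94A.

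**Figure D3:**
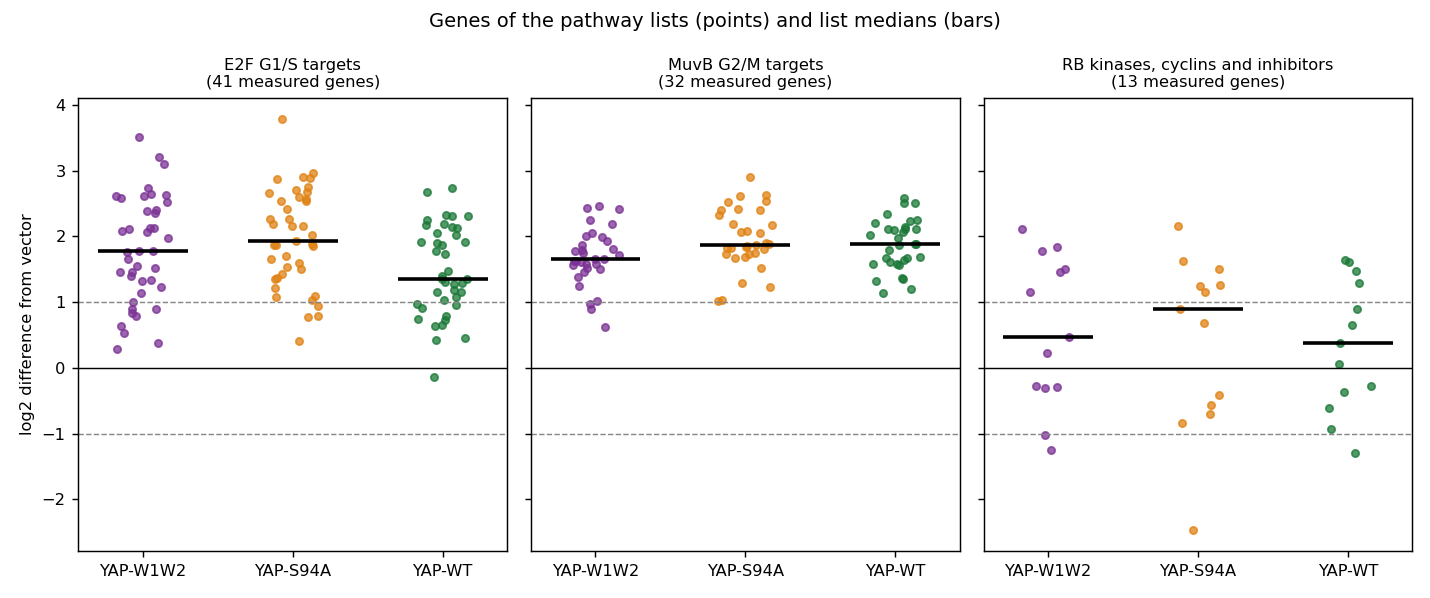
log2 difference from vector of each measured gene in 3 pathway lists (points, spread sideways at random) for YAP-W1W2, YAP-S94A and YAP-WT, 1 array per group; black bars are list medians and dashed lines mark 2-fold. Nearly all points of the E2F G1/S and MuvB G2/M lists lie above 0, with G1/S medians of 1.78, 1.93 and 1.36, while the RB kinases, cyclins and inhibitors lie on both sides of 0.

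Of 10 listed death genes that E2F1 can induce, 7 had a probe set with 1 symbol and 6 were measured. Among these 6, those at least 2-fold above vector numbered 0 in YAP-W1W2 (background 11.4%), 1 in YAP-S94A (background 10.3%) and 0 in YAP-WT (background 9.11%). Those at least 2-fold below it numbered 1 (background 8.4%), 2 (background 6.53%) and 1 (background 4.95%) in the same order. The median log2 differences of the 6 genes were -0.28, 0.10 and -0.01. PMAIP1, which encodes NOXA, had 0.75 in YAP-W1W2, 1.59 in YAP-S94A and 0.23 in YAP-WT. BCL2L11, which encodes BIM, was lower in each form, at -1.41, -1.38 and -1.24. HRK had -0.66 in YAP-W1W2, -1.40 in YAP-S94A and -0.08 in YAP-WT. TP73, named after its values were seen, fell just short of the measured limit and had intensities of 178.2 in YAP-W1W2, 134.3 in YAP-S94A, 50.3 in YAP-WT and 77.5 in vector, which was 2.30-fold higher in YAP-W1W2. APAF1, the core of the apoptosome, was nearly level at 0.06, 0.17 and 0.06.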

How the data were processed

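RNA of 4 MCF10A cultures, extracted with Trizol and labelled with biotin per the labels' protocols, was measured on Affymetrix arrays, 1 per group. The authors deposited linear array intensities made with GCOS, per the submitters' processing notes. Its version and scaling target are unknown here, and detection calls were not used. The 54675 probe sets included 62 controls. The 2% trimmed means differed between arrays by a ratio of 1.098, so values were used as deposited. Gene names came from the platform annotation; 41037 of 41091 Entrez identifiers matched the RefSeq table of GRCh38.p14 and 0 symbols changed. Floor, measured genes and the 2-fold rule are as described above. The members, lists and named genes were chosen with earlier results of these data known. Text names all members, and in each list the 4 largest differences from vector could be named, together with set E2F, DP, MuvB, cyclin and inhibitor genes and the 5 genes nearest to E2F1 and to RBL2. The fold rule was run on simulated arrays with an assumed noise. This checks the calculation and does not measure the error between the real arrays. Calculations used Python 3.11.15, numpy 2.4.6 and pandas 2.3.3. Alternatives changed the scaling, floor, log scale, probe set choice and filter. No replicate test was possible with 1 array per group.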

Additional observations from a re-analysis of the deposited data

How the results depend on the processing

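No paired analysis was possible because each group had 1 array and no replicate number to pair. Across 8 alternatives, the 12 counts of members past 2-fold stayed within 1.5 times of the values reported, except that with the mean over all probe sets 0 members, in place of RBL2, were at least 2-fold lower in YAP-S94A than in vector. The genes behind a count could change: without probe sets ending in _s_at or _x_at E2F1 was no longer counted in any form, since its remaining probe set lay under the floor in vector and gave only lower bounds of 0.20, 0.45 and 0.35 (log2) in YAP-W1W2, YAP-S94A and YAP-WT. RBL1 in YAP-S94A, at 1.15 by its main probe set, was no longer counted at 0.57 with the mean over its probe sets, 2 of which were dim, and at just under 1 after median centring. With the mean over probe sets E2F7 stood at 0.95 in YAP-W1W2, and TFDP1 at 1.20 in YAP-W1W2 and 1.33 in YAP-S94A. With the floor at the 50th percentile, E2F8 stood at 0.96 in YAP-S94A and 0.88 in YAP-WT. Of 474 recomputed member differences 458 moved by less than 1.5-fold, and no difference past 2-fold changed sign. MYBL2 ranged from 2.41 to 2.48 in YAP-W1W2, 2.35 to 2.50 in YAP-S94A and 2.57 to 2.73 in YAP-WT.

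Counts of listed genes higher in all 3 forms moved as follows; the cause was not tested beyond the genes lost by a setting. The E2F G1/S count was 18 of 28 without _s_at and _x_at probe sets, against 29 of 41. The MuvB G2/M count was 23 of 32 with the mean over probe sets, against 29 of 32. The other E2F and DP genes had 0 in place of 1, E2F4, after median centring and after scaling to a common trimmed mean. MuvB and its partners had 1 in place of 2 with the trimmed mean, with log2(intensity + 16), with the mean over probe sets and without the _s_at and _x_at probe sets. The RB kinases, cyclins and inhibitors had 2 in place of 4 with the mean over probe sets. That setting also lowered 10 of the 12 counts over all measured genes by more than 1.5 times, such as those higher in YAP-W1W2 than in vector (936 in place of 1460) and in YAP-WT (748 in place of 1162). Median centring made the genes higher and lower than in vector 1377 and 1129 in YAP-W1W2, 973 and 1092 in YAP-S94A, and 869 and 864 in YAP-WT, in place of 1460 and 1072, 1312 and 833, and 1162 and 631. For YAP-W1W2 it gave 677 and 497 against YAP-WT, in place of 499 and 713, and 818 and 439 against YAP-S94A, in place of 635 and 568. Signal close to background limits E2F1 and E2F8, whose vector intensities of 70.3 and 69.2 lay under the floor.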

Other observations

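The target lists differed in the promoter words they held. Of 56 RefSeq windows for 38 of the 44 E2F G1/S targets, 24 (42.86%) held an E2F word, against 3.31% of all windows, and 2 (3.57%) held the CHR word, against 15.16%. Of 33 windows for 27 of the 32 MuvB G2/M targets, 22 (66.67%) held the CHR word and 3 (9.09%) an E2F word. The TEAD word stood in 19.64% and 18.18% of the windows of these lists, against 14.03% of all windows. The lists hold textbook targets, some of which are known through such sites, and all windows include those of noncoding genes, so these shares are a description only.

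The RB kinases, cyclins and inhibitors had 16 windows for 10 of 15 genes. An E2F word stood in 0 of them, against 3.31% of all windows, the CHR word in 0, against 15.16%, and the TEAD word in 4 (25%), against 14.03%. For these windows as for those of the members, no match says only that the letters searched are not there.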
